A study of Mus musculus with 4 samples.

Results

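The genes described here are 10 markers of epithelium, measured in mouse rib cartilage cultures with and without a deletion of Senp6, which encodes an enzyme that removes SUMO chains from proteins. They are the keratins Krt5, Krt8, Krt14, Krt18 and Krt19, the adhesion molecules Epcam and Cdh1, and the desmosome genes Dsp, Jup and Pkp1. They were taken by symbol from 18298 genes with a read in at least 1 of 4 samples, and all 10 had reads in both control samples. The cultures were primary rib chondrocytes of C57BL/6 embryos at E18.5, at passage 1. Each group had 2 samples, the control of genotype Senp6f/f (WT) and the mutant of genotype Dermo1-Cre;Senp6f/f (Mut). Both groups therefore carried the floxed Senp6 alleles, and the mutant also carried Cre under the Dermo1 (Twist2) promoter, which is active in mesenchyme. Whether the 2 samples of a group came from separate embryos was not given in the sources used here, so the errors below measure only the spread between these samples.

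Keratins are the intermediate filament proteins of epithelium, and a filament is built from pairs of an acidic type I and a basic type II chain. Krt8 (type II) pairs with Krt18 or Krt19 (type I) in simple epithelium, and Krt5 (type II) pairs with Krt14 (type I) in the basal layer of skin. Desmosomes tie these filaments to the cell membrane: desmosomal cadherins bind plakoglobin (Jup) and plakophilins (Pkp1), which bind desmoplakin (Dsp), which binds keratin. E-cadherin (Cdh1) holds adherens junctions together, and Epcam is a surface glycoprotein of epithelial cells. Cartilage is a mesenchymal tissue, in which these genes are not defining. The question was whether they differ between mutant and control cultures.

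In units of 1000000 reads, RNA-seq counted 21.0 and 26.1 on genes in the control samples and 31.0 and 28.2 in the mutant samples. Levels are given as RPKM, the reads of a gene per kilobase of its length and per 1000000 reads counted on genes, in the order control 1, control 2, mutant 1, mutant 2. Senp6 itself had RPKM of 10.8, 18.0, 12.0 and 8.07, so the groups overlapped, and reads of the deleted exons cannot be separated in a gene count. The chondrocyte label was met by Col2a1, the main cartilage collagen, with RPKM of 609, 659, 334 and 445, although the fibroblast and bone collagen Col1a1 was higher in every sample. The control samples differed from each other by more than the mutant samples did, with a chi-square per degree of freedom over genes of 49.7 against 24.0. Mutant sample 2 also stood apart by sex-linked genes. Xist had 2, 5, 3 and 11354 reads and the Y-linked Ddx3y 818, 1150, 1601 and 3, so mutant sample 2 had the female pattern and the others the male one. In bulk samples such as these, fewer cells of a type and less RNA per cell cannot be told apart.

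The levels of the 10 genes fell roughly into 3 classes. Jup and Krt18 were the highest in every sample, Krt8 and Krt19 were low, and the others were traces in the control samples. Of these traces, Pkp1 reached an RPKM of 1.04 in mutant 2. Krt18 in control 1 was nearer to the low class, above 49.5% of all listed genes. It was above 65.2%, 79.4% and 82.6% of them in control 2, mutant 1 and mutant 2. Jup alone made up 91.5%, 77.1%, 76.9% and 69.6% of the reads of the 10 genes. Without Jup, the other 9 genes together received 8.61, 21.0, 38.5 and 51.5 reads per 1000000, with both mutant samples above both control samples.

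**Figure D1:**
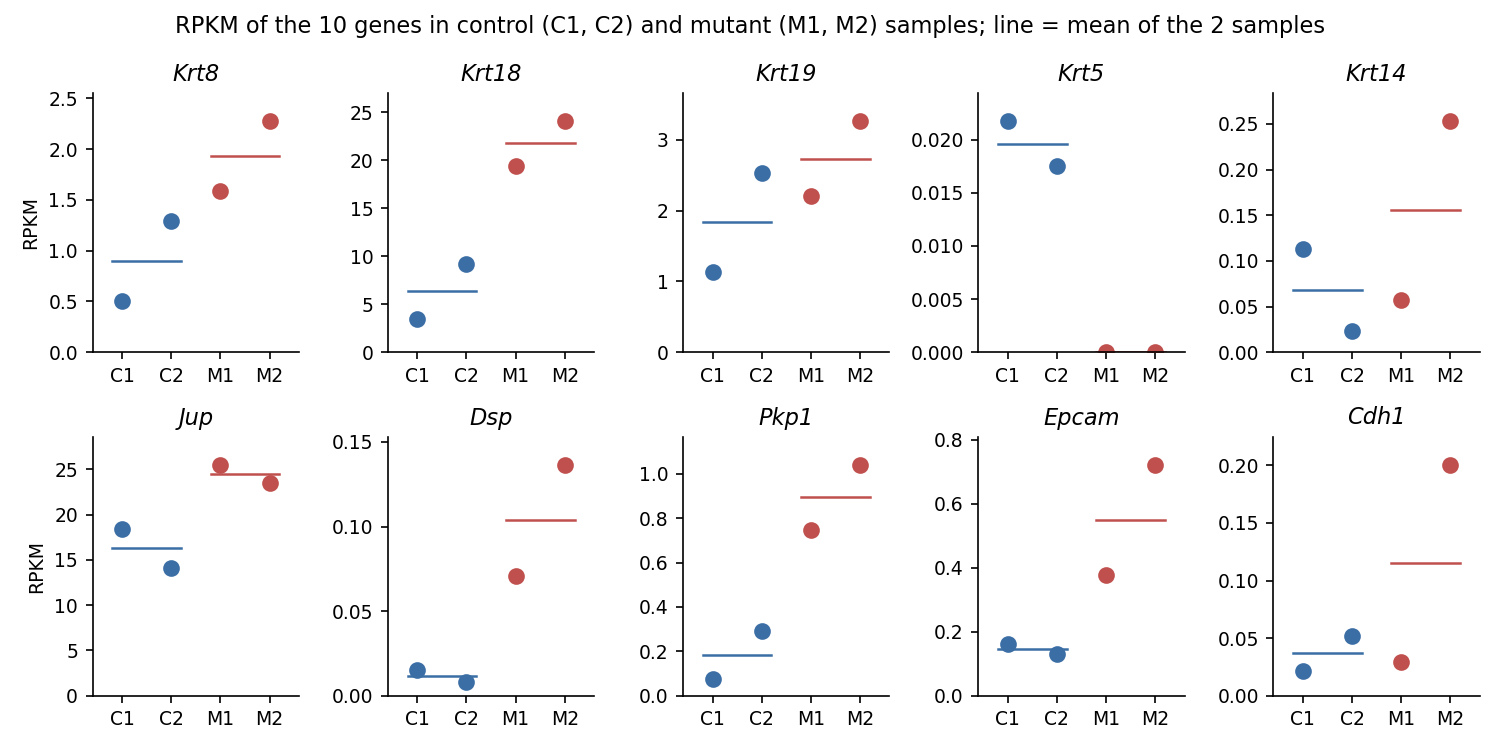
RPKM of each of the 10 genes (vertical axes, linear and starting at 0, with a scale of their own) in control samples 1 and 2 (C1, C2) and mutant samples 1 and 2 (M1, M2), 1 point a sample, with a line at the mean of the 2 samples. Both mutant points lie above both control points for Krt8, Krt18, Jup, Dsp, Pkp1 and Epcam, the groups overlap for Krt19, Krt14 and Cdh1, and Krt5 has no read in the mutant samples.

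Krt18, a keratin of simple epithelium, was the highest keratin in each of these cultures. Krt18 had 102, 338, 844 and 952 reads, an RPKM of 3.47, 9.24, 19.5 and 24.1. The mean RPKM was 6.35 ± 4.08 (SD, n = 2) in control and 21.8 ± 3.27 (SD, n = 2) in mutant cultures. Each mutant sample exceeded each control sample, and the lower mutant value was 2.11 times the higher control value. The fitted log2 fold change, mutant minus control, was 1.73 with a standard error of 0.395. Its partner Krt8 was much lower, with 19, 61, 89 and 116 reads, an RPKM of 0.501, 1.29, 1.59 and 2.28. The groups did not overlap for Krt8 either, but the lower mutant value was only 1.23 times the higher control value, and the fitted log2 fold change was 1.05 with a standard error of 0.458. Krt19, which marks simple ductal and mesothelial layers, had 36, 100, 103 and 139 reads, an RPKM of 1.14, 2.54, 2.20 and 3.26. Control 2 exceeded mutant 1, so the Krt19 groups overlapped, and its fitted log2 fold change was 0.52 with a standard error of 0.412.

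The partner keratins were not present in equal amounts. The RPKM of Krt18 was 6.92 and 7.14 times that of Krt8 in the control samples and 12.2 and 10.6 times in the mutant samples. Krt18 was 3.05 and 3.64 times Krt19 in the control samples and 8.83 and 7.38 times in the mutant samples, so in both ratios Krt18 took a larger share in the mutant cultures. Over all 25 listed keratin genes, type I keratins summed to an RPKM of 5.49, 13.4, 23.2 and 28.7 and type II keratins to 2.45, 4.35, 7.72 and 8.79. Type I exceeded type II by 2.24, 3.09, 3.00 and 3.27 times, a ratio whose groups overlapped. Krt8 with Krt7 and Krt80, other type II keratins, made up 84.8% to 97.0% of the type II sum. Krt80 had RPKM of 0.778, 1.53, 3.84 and 3.83 and exceeded Krt8 in each sample. Of the Krt8 transcript, 29.7% of all 50-base stretches also occur in other genes, mostly in the pseudogene Krt8-ps, against 0.72% for Krt18. How such reads were counted was not given in the sources used here, and their part in the ratio was not tested.

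**Figure D2:**
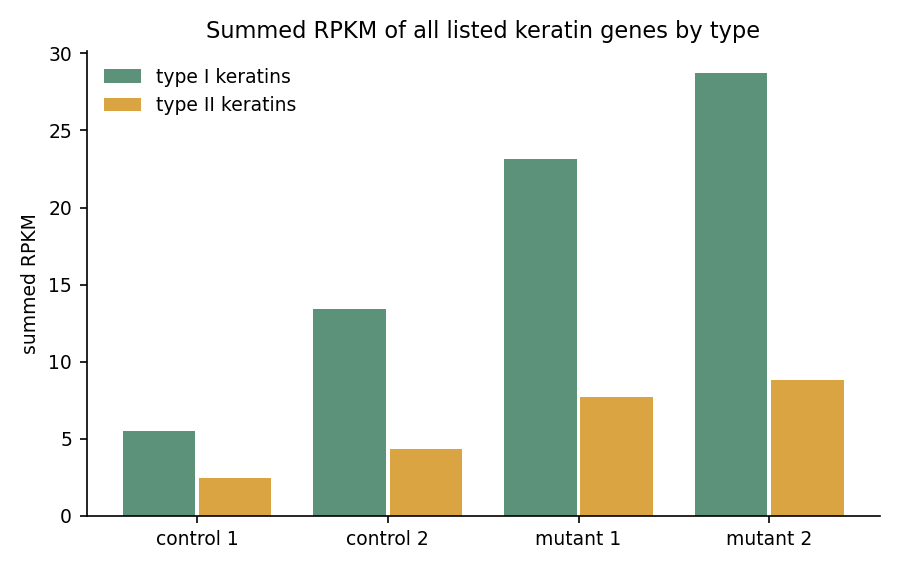
Summed RPKM (vertical axis, linear) of the 13 listed type I keratin genes and the 12 listed type II keratin genes in each of the 4 samples. Both sums are higher in each mutant sample than in each control sample, and the type I sum, mostly Krt18, exceeds the type II sum in all 4 samples.

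Krt8 and Krt18 are neighbours on chromosome 15, the place where the type II cluster ends and the type I gene Krt18 lies apart from its own cluster. In GRCm38, Krt8 spans chr15:101996698-102004482 on the minus strand and Krt18 spans chr15:102028180-102032027 on the plus strand, so their starts face each other. Krt5 lies in the same cluster at chr15:101707070-101712898, while Krt14 (chr11:100203162-100207548), Krt19 (chr11:100140810-100148665) and Jup (chr11:100368958-100397763) lie near each other on chromosome 11. The others are Epcam at chr17:87635979-87651129, Cdh1 at chr8:106603351-106670246, Dsp at chr13:38151294-38198577 and Pkp1 at chr1:135871395-135919207. The 250 bases before the start of Krt8 (chr15:102004343-102004592, minus strand), Krt18 (chr15:102027966-102028215, plus strand) and Epcam (chr17:87635729-87635978, plus strand) are shown because these genes were higher in both mutant samples and their promoters hold the letters that the Snail and Zeb repressors of epithelial genes are known to bind. They are from RefSeq (GRCm38.p6), 5′ to 3′ towards the start, with CAGGTG or its reverse complement CACCTG in capitals. RefSeq and GENCODE place the starts of Krt8 and Krt18 differently, so both of these windows, measured from the RefSeq start, run into the GENCODE spans given above, and the Krt8 motif lies within the Krt8 span.
Krt8: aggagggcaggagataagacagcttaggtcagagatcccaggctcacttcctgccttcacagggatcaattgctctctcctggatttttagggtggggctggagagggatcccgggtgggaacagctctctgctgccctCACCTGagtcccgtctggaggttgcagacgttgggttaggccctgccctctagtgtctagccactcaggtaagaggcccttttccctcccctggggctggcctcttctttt
Krt18: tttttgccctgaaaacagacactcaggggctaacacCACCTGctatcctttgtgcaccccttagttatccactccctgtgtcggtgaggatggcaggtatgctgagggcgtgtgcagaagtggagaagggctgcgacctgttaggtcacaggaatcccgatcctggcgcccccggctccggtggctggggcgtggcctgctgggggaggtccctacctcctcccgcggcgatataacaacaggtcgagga
Epcam: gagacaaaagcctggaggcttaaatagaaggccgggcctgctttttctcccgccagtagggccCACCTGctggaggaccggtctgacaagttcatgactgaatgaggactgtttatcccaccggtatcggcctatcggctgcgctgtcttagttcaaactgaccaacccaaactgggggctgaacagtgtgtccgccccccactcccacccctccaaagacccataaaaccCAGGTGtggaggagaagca
RefSeq promoters were at hand for 7 of the 10 genes, and Cdh1, Krt19 and Pkp1 had none. The motif occurred once in Krt5, Krt8 and Krt18, at 2 places in Epcam, and not in Krt14, Dsp or Jup, and 17.2% of all 32851 promoter windows of this length hold it. A match of 6 letters is a description of the sequence and not a site of binding.

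The basal keratins were near the limit of counting. Krt14 had 4, 1, 3 and 12 reads, an RPKM of 0.113, 0.0228, 0.0576 and 0.253, so the groups overlapped and only mutant 2 reached 10 reads. Over the summed reads of each group, the mutant to control ratio of Krt14 was 2.39, with a 95% exact interval of 0.825 to 8.40. This interval, like the others given here, covers counting error only and not the spread between cultures. Krt5 had 1 read in each control sample and 0 in the mutant samples, where a limit of 3 reads corresponds to an RPKM of 0.0442 and 0.0485. No difference in Krt5 was detectable at this depth. Parts of both transcripts also occur in related keratins, 12.2% of the Krt5 stretches (mostly Krt6a) and 14.4% of the Krt14 stretches (mostly Krt16).

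Among the desmosome genes, plakoglobin was the highest of the 10 genes in the control cultures. Jup, which also serves in adherens junctions, had 1943, 1848, 3962 and 3326 reads, an RPKM of 18.46, 14.1, 25.5 and 23.5. The groups did not overlap, with means of 16.3 ± 3.07 (SD, n = 2) and 24.5 ± 1.42 (SD, n = 2), and the fitted log2 fold change was 0.55 with a standard error of 0.176. Jup thus had a small fold but, after Krt18, the largest difference in mean RPKM of the 10 genes. Pkp1, a plakophilin of stratified epithelium, had 7, 34, 104 and 132 reads, an RPKM of 0.0742, 0.290, 0.748 and 1.04. Its groups did not overlap, although the control samples differed 3.91-fold, and the fitted log2 fold change was 2.22 with a standard error of 0.547. Dsp, the linker to keratin that every desmosome needs, had 3, 2, 21 and 37 reads, an RPKM of 0.0149, 0.00798, 0.0706 and 0.137. Its groups did not overlap, and the ratio over summed reads was 9.23, with a 95% exact interval of 3.74 to 29.5. In the fit Dsp had a log2 fold change of 3.11 with a standard error of 0.668. Even so, Jup exceeded Dsp in RPKM by 1240 and 1769 times in the control samples and by 361 and 172 times in the mutant samples, so desmoplakin was a trace beside plakoglobin in every sample.

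The surface molecules were at trace level in all samples. Epcam had 7, 7, 24 and 42 reads, an RPKM of 0.162, 0.130, 0.376 and 0.721. The groups did not overlap, the ratio over summed reads was 3.75 with a 95% exact interval of 2.09 to 7.24, and the fitted log2 fold change was 1.86 with a standard error of 0.538. Cdh1 had 2, 6, 4 and 25 reads, an RPKM of 0.0216, 0.0520, 0.0292 and 0.201. Mutant 1 fell between the control samples, so the higher mutant mean of Cdh1 rested on mutant 2 alone. N-cadherin (Cdh2), the classical cadherin of mesenchyme, had RPKM of 23.1, 21.5, 25.1 and 25.7, and the RPKM of Cdh1 was 0.0933%, 0.242%, 0.117% and 0.781% of it.

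The share of each transcript covered by reads, deposited beside the counts, followed the reads. Krt18 was covered over 98.4% to 100% of its length in all samples and Krt8 over 71.2% in control 1 and 93.5% to 97.3% in the others. Dsp was covered over 2.98% and 1.62% in the control samples and over 22.9% and 38.9% in the mutant samples, and Pkp1 over 15.5% and 50.7% against 85.4% and 80.0%. The Dsp and Pkp1 reads of the mutant samples were therefore spread along these transcripts and not stacked at 1 place. Jup was covered over 73.1% to 87.7% in spite of its many reads, and the length of 5009 bases used for it in the files exceeds the 3205 bases of its longest coding transcript in GENCODE.

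**Figure D3:**
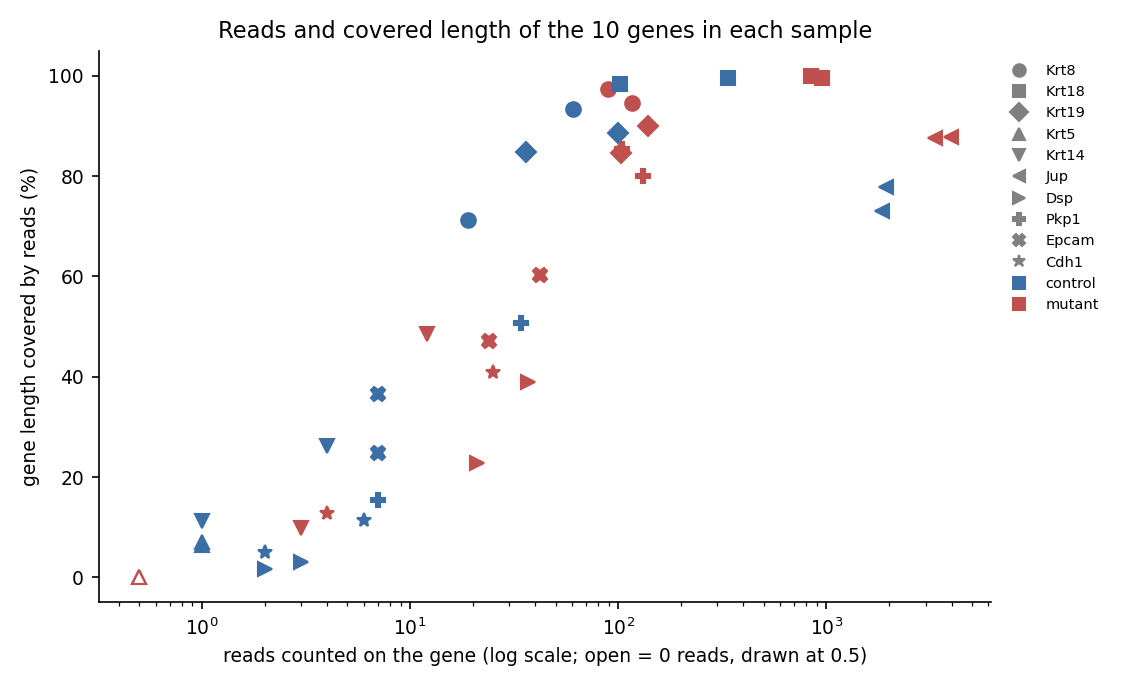
Share of the gene length that reads covered, in percent (vertical axis) against the reads counted on the gene (horizontal axis, log scale), 1 point for each gene and sample, with marker shape for the gene and colour for the group. Below 50 reads the covered share scatters between 0 and 84.8%, higher for the short Krt8 and Krt19 than for the long Dsp at like reads, Krt18 is near 100% in all samples, and Jup lies below it at 73.1% to 87.7%.

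Of the 10 genes, 7 had at least 10 reads in at least 2 samples and entered the edgeR fit over 14123 genes. Dsp and Epcam passed this filter through the mutant samples alone and Pkp1 through the mutant samples and control 2, so Dsp and Epcam had to be higher in the mutant samples to enter. Krt5, Krt14 and Cdh1 did not enter. The genes were chosen by symbol when the mutant to control differences of an earlier look at these samples, the contrast described here, were known, so these differences are a description and support nothing further. By edgeR's quasi-likelihood test with Benjamini-Hochberg adjustment, 0 of the 7 genes reached an adjusted p of 0.05. The test called 0% of all genes tested as higher and 0% as lower, and its smallest adjusted p for any gene was 0.0512. At an unadjusted p under 0.05 there were 5 of the 7 genes, all but Krt8 and Krt19, beside 1312 higher and 887 lower among all genes tested. DESeq2, which called 3.07% of all genes as higher, called 2 of the 7, Krt18 and Pkp1, and limma on log2(RPKM + 1) called 0. The fitted log2 fold changes ran from 0.52 to 3.11 with a median of 1.73, against a median of 0.01 and quartiles of -0.19 and 0.22 over all genes tested. Each mutant sample exceeded each control sample in 6 of the 7, where 25.4% of all genes tested were above and 22.8% below. With 2 samples against 2, the smallest p open to an exact permutation test is 0.333.

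**Figure D4:**
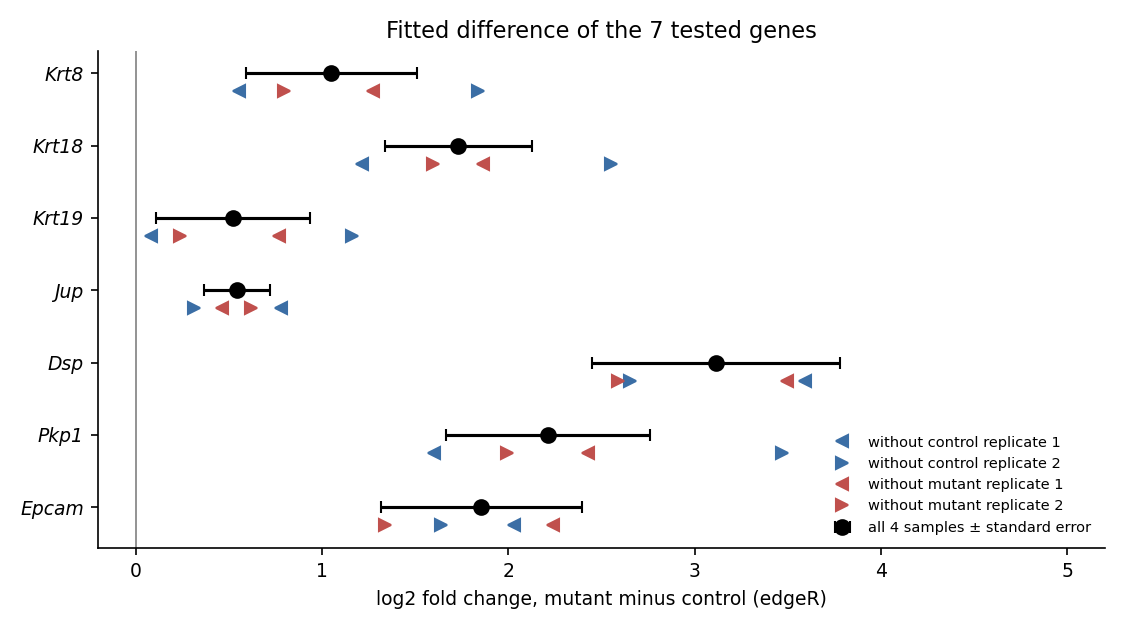
Log2 fold change, mutant minus control, of the 7 genes in the edgeR fit (horizontal axis): black points are the fit to all 4 samples with its standard error, and triangles the same fit without 1 named sample. All 35 values are above 0, which for all genes but Krt19 follows from both mutant samples exceeding both control samples. Values without control 1 and without control 2 lie on opposite sides of the black point for each gene.

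Single cultures moved these values. Control 2 was 2.66 times control 1 in RPKM for Krt18, 2.58 times for Krt8, 2.23 times for Krt19 and 3.91 times for Pkp1, while Jup, Dsp and Epcam were higher in control 1. Mutant 2 was the highest of the 4 samples for 8 of the 10 genes, all but Jup and Krt5. Without mutant 2, the sample with the female pattern, the fitted log2 fold change was 1.60 for Krt18, 1.99 for Pkp1, 2.59 for Dsp, 1.34 for Epcam, 0.80 for Krt8, 0.62 for Jup and 0.24 for Krt19, and 0 of the 7 were called, where 0.68% of all genes were called higher. Without control 1, Krt19 came to 0.08 and Krt8 to 0.55, and 4 genes were called (Krt18, Dsp, Jup and Pkp1), where 3.72% of all genes were called higher. Without control 2, Krt8 came to 1.84, Krt19 to 1.16, Krt18 to 2.55, Pkp1 to 3.47 and Jup to 0.31, and 5 genes were called (Krt8, Krt18, Krt19, Dsp and Pkp1), where 9.42% of all genes were called higher and 10.6% lower. Without mutant 1, Dsp and Pkp1 were called, where 2.36% of all genes were called higher. The size and the call thus depended on which cultures were kept. The shared direction adds nothing for 6 of the 7 genes. In these, both mutant samples exceeded both control samples, so leaving out 1 sample could not turn it.

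Other genes of epithelial filaments and junctions were taken from lists of 84 genes by their known roles, of which 75 had a read and 39 entered the fit. These lists were written with earlier results of these data known, so their differences too are a description and not independent support. None of the 39 was called by edgeR, 16 had an unadjusted p under 0.05, DESeq2 called 7 and limma on log2(RPKM + 1) called 0. Over all 14123 genes, 1312 higher and 887 lower had such an unadjusted p, and DESeq2 called 3.07% higher and 1.86% lower. The median log2 fold change of the 39 was 0.61 (0.26 in limma on log2(RPKM + 1)). It was above 0 for 35 of the 39 genes, against 51.4% of all genes tested. Each mutant sample exceeded each control sample in 25 of the 39 and was lower in 1, against 25.4% and 22.8% of all genes tested. Only 26 of the 39 had at least 10 reads in both control samples. Cldn3, Cldn7, Cgn, Pkp3 and Myo5b entered through the mutant samples alone, so these had to have more reads there. Over all 75 listed genes the counts were 35 above and 5 below, where 23.5% of all 18298 genes were above and 20.4% below. Among genes with a mean of at least 50 reads over the 4 samples, 14 of 18 (77.8%) were above, against 23.8% of all such genes.

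In the tight junction and polarity list, F11r, the junctional adhesion molecule JAM-A, had 91, 98, 510 and 640 reads, with a log2 fold change of 2.23 and an adjusted p of 0.0739 in edgeR. Cldn3, a claudin that seals tight junctions, had 0, 4, 52 and 48 reads, with a ratio over summed reads of 19.9 (95% exact interval 7.53 to 74.5) and an adjusted p of 0.0885 in edgeR. Neither passed the threshold in this fit, while DESeq2 and edgeR without a filter called both, and each mutant value exceeded each control value. Cldn7 and the junction plaque gene Cgn had 3, 6, 20 and 13 and 5, 3, 14 and 15 reads. The list's median over 8 tested genes was 1.03, with 6 above and 0 below, against 25.4% and 22.8% of all genes tested. However, Cldn3, Cldn7 and Cgn entered through the mutant samples alone, so they had to have more reads there. The median was 0.56 with at least 10 counts in every sample, 0.25 in limma on log2(RPKM + 1) and 1.64 without control 1.

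Among other keratins only 4 of 20 entered the fit, with a median of 0.68. The type II keratins Krt80 (29, 71, 211 and 192 reads) and Krt7 (27, 53, 102 and 102 reads) were higher in both mutant samples, at log2 fold changes of 1.68 and 1.01. Krt10, a keratin of the upper skin layers, had 19, 38, 25 and 26 reads and a log2 fold change of -0.50, and was lower in both mutant samples by TMM-normalized counts but not by RPKM. Krt13 had 5, 28, 33 and 19 reads, with overlapping groups. The median moved to 0.22 without control 1 and to 1.54 without control 2. The 16 keratins outside the fit had at most 16 reads in any sample (Krt83 in mutant 2), and the basal and wound keratins Krt15, Krt17 and Krt6a at most 3.

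Of the other desmosome genes, 7 entered, with a median of 0.73, 6 above and 0 below, against 25.4% and 22.8% of all genes tested. Dsc2, the desmosomal cadherin desmocollin, had 7, 18, 59 and 74 reads and a log2 fold change of 2.07, and its cadherin partner Dsg2 only 4, 4, 9 and 12 reads. The plakophilins Pkp4, Pkp2 and Pkp3 had log2 fold changes of 0.73, 0.58 and 2.14, Pkp4 with the most reads (872, 1538, 2377 and 2665) and Pkp3 in the fit through the mutant samples alone. Perp, a desmosomal membrane protein and also a p53 target, had 16, 103, 176 and 399 reads and a log2 fold change of 2.01. Of the other desmosomal cadherins, Dsg1a, Dsg1b, Dsg1c, Dsg3, Dsg4 and Dsc1 had no read in any sample. Dsc3 had 0, 1, 2 and 16 reads and did not enter the fit. Hemidesmosome genes had a median of 0.31 over 9 (0.19 without mutant 2), and the laminin chain Lamb3 had 12, 5, 25 and 40 reads and a log2 fold change of 1.52.

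Epithelial proteases, their inhibitors and other surface genes had a median of 1.71 over 6. This median fell to 0.29 with at least 10 counts in every sample, 0.35 in limma on log2(RPKM + 1) and 1.14 without mutant 2. Of the 6, Myo5b (6, 9, 21 and 64 reads, log2 fold change 2.14) entered through the mutant samples alone. P-cadherin (Cdh3), the list's highest gene, had 545, 786, 1336 and 769 reads and Lsr, a protein of tricellular junctions, 15, 28, 27 and 32, with overlapping groups and log2 fold changes of 0.29 and 0.11. The protease matriptase (St14) had 8, 19, 54 and 72 reads, and its inhibitors Spint1 and Spint2 had 3, 10, 26 and 71 and 13, 13, 41 and 58, with both mutant samples above both control samples in each. The epithelial transcription and splicing factors had a median of 0.28 over 5, which was 0.11 without control 1, 0.12 without mutant 2, 0.50 without control 2 and 0.57 without mutant 1. Klf5 had 255, 353, 664 and 659 reads and a log2 fold change of 0.76. Grhl3 had 0, 0, 6 and 10 reads and Grhl2 0, 0, 1 and 4, while Esrp1, a splicing factor of epithelium, had 0, 0, 2 and 0.

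The repressors of epithelial genes were expressed in both groups. Snai1 had RPKM of 117, 131, 125 and 109 and Zeb1 of 14.7, 17.2, 19.9 and 17.3, with groups that overlapped by TMM-normalized counts, though for Zeb1 not by RPKM. Snai2 had RPKM of 36.3, 24.3, 19.6 and 17.8 and Twist1 of 63.6, 40.7, 33.9 and 32.7, both lower in both mutant samples, with log2 fold changes of -0.74 and -0.70. The median over 7 was -0.19, with 1 above, 2 below and 4 overlapping, against 25.4% above and 22.8% below over all genes tested. The gene above was Prrx1, with RPKM of 97.2, 97.6, 113 and 115 and a log2 fold change of 0.19.

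**Figure D5:**
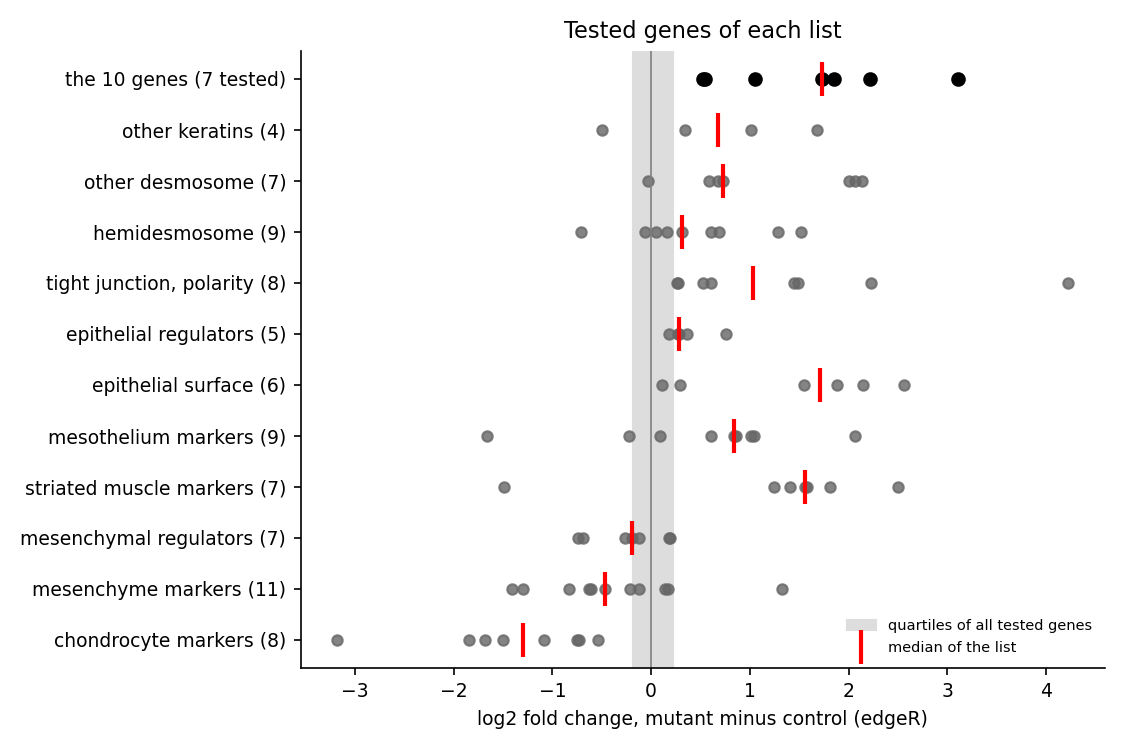
Log2 fold change, mutant minus control, of every gene tested in each list (grey points, 1 a gene) and of the 7 tested genes described here (black points), with a red bar at each median and a grey band between the quartiles of all 14123 genes. The 6 epithelial lists have medians from 0.28 to 1.71, and the chondrocyte markers lie wholly below 0 at a median of -1.29.

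Markers of several other cell types also differed between the groups, in both directions. Mesothelium, the keratin-bearing lining of the chest cavity, was looked at through 10 marker genes, of which 9 were listed. Their summed RPKM was 8.74 and 11.9 in control and 12.6 and 16.3 in mutant cultures, with 1 of 10 at 0 in each sample. Among 9 tested, 5 were above, 1 below and 3 overlapping, against 25.4% above and 22.8% below over all genes tested. Krt7, also counted among the other keratins above, is 1 of these markers. Msln had RPKM of 1.72, 5.14, 4.58 and 6.17, with overlapping groups. Bnc1 was higher in both mutant samples (35, 80, 248 and 355 reads, log2 fold change 2.07), Wt1 overlapped (90, 121, 157 and 78 reads) and Rspo1 was lower in both (115, 80, 39 and 43 reads). The part of mesothelium in the keratin values was not tested.

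Most defining markers of lung and skin epithelium were at or near 0. Of 7 lung genes 4, including Sftpc and Scgb1a1, had no read in any sample, Nkx2-1 had 1, 1, 2 and 2 reads, Sftpb 7, 1, 3 and 1, and Foxj1, a factor of ciliated cells, 18, 12, 19 and 14. The lung list summed to an RPKM of 0.210 to 0.523 in control and 0.234 to 0.310 in mutant cultures. Of 8 epidermal genes, between 2 and 4 were at 0 in each sample, Lor had 3, 2, 5 and 3 reads and the sum was 2.82 and 2.83 in control and 4.32 and 4.55 in mutant cultures. Of the others, Trp63, a factor of basal epithelium, had 24, 42, 47 and 55 reads, Krt10 had the reads given above, and Sfn, also expressed outside skin, had most of that sum, with RPKM of 2.03, 1.80, 3.43 and 3.51. Of the notochord genes T, Noto, Shh and Foxa2, Foxa2 alone had reads (0, 1, 1 and 4).

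Striated muscle genes summed to an RPKM of 70.6 and 25.4 in control and 126 and 142 in mutant cultures. Of the 7, 0 were at 0 in any sample and 6 were above, where 25.4% of all genes tested were above. Myod1, a factor that sets the muscle lineage, had 70, 26, 247 and 487 reads. The 8 chondrocyte genes summed to 793 and 805 in control and 399 and 527 in mutant cultures. Below were 8 of 8, against 22.8% of all genes tested, led by Matn1 with a log2 fold change of -3.18. Of 11 tested mesenchyme genes, 7 were below and 3 above, with a median of -0.47. All 3 tested blood and macrophage genes and both tested osteoblast genes were below. Of 4 tested endothelial genes, 1 was below and 1 above. Over all genes tested, 22.8% were below and 25.4% above. The part of any of these lists in the epithelial values was not tested.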

How the data were processed

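Each sample's file lists its genes with reads. The authors deposited raw read counts per gene, RPKM (the count scaled by gene length and by the reads counted on genes) and, in percent, how much of each gene's length the reads covered. A gene without a read is absent from a file and was given a count of 0. The submitters' processing notes name mm9 and SAMtools; the counting tool and annotation were not given in the sources used here, so positions come from GENCODE (GRCm38) and promoters from RefSeq (GRCm38.p6) and not from the counting. The 10 genes and all lists were chosen with earlier results of these data known.

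From the counts, edgeR 4.0.16 (R 4.3.3) was fitted with TMM normalization and a robust quasi-likelihood test, on genes that reached 10 counts in 2 or more samples, and p-values were adjusted by Benjamini-Hochberg with a threshold of 0.05. The fit was repeated in DESeq2 1.42.0, in limma 3.58.1 on log2(RPKM + 1) and log2(RPKM + 0.1), with no filter or a minimum of 10 counts in all samples, with a replicate block, and without each sample. Above or below means both mutant samples beyond both control samples in TMM-normalized CPM. Ratios over summed reads are scaled by summed totals, with exact binomial intervals. Sums by keratin type, ratios over summed reads, counts over all listed genes and the split at a mean of 50 reads were added after the values were seen. From each list, the text names genes past the threshold, up to 4 with the highest mean RPKM, and those with separate groups and a log2 fold change of at least 1 in size. Krt15, Krt17, Krt6a, Dsg2, Dsc3, Grhl2, Grhl3, Esrp1, Zeb1, Wt1, Krt83 and Cdh2 were chosen after their values were seen. A gene that the rule would name is not reported here. The scripts were tested on simulated counts.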

Additional observations from a re-analysis of the deposited data

How the results depend on the processing

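The fitted direction of each of the 7 tested genes was kept in every alternative that gave it a value, and no result reversed. For all but Krt19, leaving out 1 sample could not reverse it, because both mutant samples exceeded both control samples. DESeq2 gave 434 genes higher and 263 lower, 2 of the 7 genes and 7 of the other epithelial genes. Without a filter there were 225 higher and 61 lower, and 4 of the other epithelial genes (among them Cldn3, F11r and Krt80). At least 10 counts in every sample and both limma fits gave 0 calls. The replicate numbers showed no shared difference across genes (correlation of the replicate differences -0.065). Whether they mark a shared litter or batch was not given in the sources used here. With the replicate block there were 84 higher and 33 lower, 0 of the 7 genes and 1 other epithelial gene (F11r). Leaving out 1 sample gave 96 to 1331 genes higher, 47 to 1492 lower, 0 to 5 of the 7 genes and 2 to 12 of the other epithelial genes, always with 1 group reduced to a lone sample that is assumed to vary like the others. The median log2 fold change of the tested genes, 1.73, was 0.79 with at least 10 counts in every sample, where Dsp, Epcam and Pkp1 drop out. It was 0.57 and 1.13 in limma on log2(RPKM + 1) and log2(RPKM + 0.1), scales that understate the change of low genes, and 1.21 to 1.87 when 1 sample was left out. At the lowest depth 1 read on a gene of 2 kb is an RPKM of 0.0238, so differences in Krt5, Krt14 and Cdh1 were limited by counting.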
